A study of Mus musculus with 20 samples.

Results

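Of the 20 libraries of aortic endothelium RNA in the study, 16 came from mice that had received high-density lipoprotein (HDL), and these were compared with the 4 from mice that had received saline. The members were taken by label: every library whose treatment contains HDL, whatever else was injected with it. All 20 mice were female Apoe-/- animals of the strain B6.129P2-Apoetm1Unc/J on regular chow, in which the gene for apolipoprotein E is inactivated and plasma cholesterol is high. All had a 5/6 nephrectomy, a surgery that removes most kidney tissue and leaves chronic kidney disease, at 9 weeks of age. A single retro-orbital injection followed 7 weeks after surgery, and RNA was collected 1 week after the injection. The 4 HDL-containing groups of 4 mice each received 4 mg of HDL alone (HDL), HDL with an inhibitor of miR-92a at 20 mg/kg (HDL + LNA92a, the LNA92a group), HDL with an inhibitor of miR-489 at 20 mg/kg (HDL + LNA489, the LNA489 group), or HDL with both (HDL + LNA92a + LNA489, the dual group, 40 mg/kg of inhibitor in total). Neither an inhibitor without HDL nor a mouse without nephrectomy is among the groups analysed here, so the saline comparison of 3 of the 4 groups joins HDL with an inhibitor. Each library is 1 mouse with its own animal number, and libraries are named by group and number (HDL 11).

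HDL carries cholesterol away from cells of the artery wall: the transporters ABCA1 and ABCG1 load cholesterol onto apolipoprotein A1 and HDL particles, and the receptor SR-BI (gene Scarb1) binds HDL. HDL also carries sphingosine 1-phosphate, a lipid that endothelial cells export through SPNS2 and sense through the receptor S1P1 (gene S1pr1), which signals to the nitric oxide synthase eNOS (gene Nos3). LNA is locked nucleic acid, a modified nucleic acid used in antisense inhibitors. A microRNA binds its targets mainly through its seed, bases 2 to 8 from the 5′ end. The mature sequences of the 2 microRNAs named by the inhibitors are given because their presence is what separates the HDL-containing groups from each other. They are from RefSeq on GRCm38.p6, 5′ to 3′, with the seed in capitals.
mmu-miR-92a-3p: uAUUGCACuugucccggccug
mmu-miR-489-3p: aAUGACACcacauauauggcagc
The first is encoded on chromosome 14 (Mir92-1, 115044476 to 115044496, + strand) and on chromosome X (Mir92-2, 52741854 to 52741874, - strand), and the second on chromosome 6 (Mir489, 3721922 to 3721944, - strand). The seeds differ, so the 2 inhibitors do not share a seed.

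Levels are given as FPKM, the read counts scaled to gene length and library size that the authors deposited. Differences are on the authors' variance-stabilized log2 scale, the mean of the 4 HDL-containing group means minus the saline mean, with the standard error from limma. Libraries held 11614441 to 21357104 assigned reads. All 20 genes of the endothelial list were measured well enough to be tested, and their summed FPKM ran from 117 to 3089 in saline and from 106 to 3212 in HDL-treated libraries. The sum of the 15 fat cell genes was larger than the endothelial sum in all but 8 of the 20 libraries (2 saline and 6 HDL-treated exceptions). In 2 libraries, Saline 2 and dual 10, the 9 adrenal cortex genes summed to 2177 and 1729 FPKM, against 2.77 to 24.4 in the others. In HDL 11 the B and plasma cell genes summed to 7067 FPKM, against 88.7 to 1276 in the others.

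No gene passed the threshold in HDL-treated against saline mice, so every difference below is a value that did not pass. With limma and Benjamini-Hochberg adjustment, 0 of 16848 genes (0%) had an adjusted p under 0.05, and the smallest adjusted p was 0.999. At an unadjusted p under 0.05 there were 329 genes (1.95%), 147 higher (0.873%) and 182 lower (1.08%), fewer than the 842 that this threshold would take in if nothing differed. Weighting the libraries by their quality (arrayWeights) called 0 genes with 363 at the unadjusted threshold, and voom on recovered reads called 0 with 455. In 0 genes (0%) did the 16 HDL-treated and the 4 saline libraries separate without overlap. Of all tested genes, 50.8% were higher in HDL-treated mice, and the median difference was 0.00. At the median standard error of 0.28, a gene had to differ by 0.59 to reach an unadjusted p of 0.05.

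The 4 HDL-containing groups gave the same count of called genes when each was set against the same 4 saline libraries: none. Unadjusted counts were 281 genes in HDL (1.67%), 742 in the LNA92a group (4.40%), 458 in the LNA489 group (2.72%) and 177 in the dual group (1.05%), beside 0 called in each (0%). The smallest adjusted p was 1.00, 0.855, 0.519 and 1.00 in that order. With arrayWeights the unadjusted counts were 899, 1129, 666 and 332, and with voom 308, 621, 536 and 247, again with 0 called. On log2(FPKM + 0.1) they were 201, 1898, 415 and 182, also with 0 called. Single libraries moved them as well: the LNA92a count was 272 without Saline 9, and the LNA489 count was 1462 without LNA489 13. In 6452 genes (38.3%) all 4 groups lay on the same side of saline, a share that includes what the shared saline libraries force. The test among the 4 HDL-containing groups, which leaves the saline means out, called 0 genes (0%), with 318 (1.89%) at the unadjusted threshold, 274 with voom and 2362 with arrayWeights. The data therefore hold no called difference from saline, and no called difference between the HDL-containing groups.

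Among genes of mean FPKM 1 or more with a proper symbol, the smallest p of the comparison was that of Spns2. This gene exports sphingosine 1-phosphate from endothelial cells (ENSMUSG00000040447.15, chromosome 11, 72451638 to 72489904, GRCm38). Spns2 measured 2.34, 3.68, 4.14 and 4.75 FPKM in the saline libraries. In HDL it measured 8.78, 8.25, 7.41 and 7.04 FPKM, and in the LNA92a group 6.79, 6.50, 3.62 and 10.3. In the LNA489 group it measured 4.80, 6.71, 15.3 and 6.49 FPKM, and in the dual group 5.30, 8.20, 6.05 and 4.41. In FPKM, all 4 HDL mice and 14 of the 16 HDL-treated mice lay above the highest saline mouse, the exceptions being LNA92a 17 and dual 21. On the variance-stabilized scale 15 of the 16 did, and dual 21 was the exception. The log2 difference was 0.90 ± 0.23 (95% interval 0.43 to 1.38), with 0.99 in HDL, 1.11 in the LNA92a group, 0.98 in the LNA489 group and 0.54 in the dual group, each ± 0.29. The limma adjusted p was 0.999. The exact permutation test of 16 against 4 libraries, 2-sided, gave p = 0.00124 unadjusted, where 0.000413 is the smallest possible. That test used the same values that placed Spns2 first, so a small p was favoured by the choice and is no separate support. Leaving out any 1 library kept the difference between 0.80 and 0.96. Mybbp1a overlaps Spns2, and the strand used in counting was not given in the sources used here, so its reads are not certain to be its own.

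Rflnb, which encodes a filamin-binding protein that regulates actin bundles, had the smallest p of the test among the HDL-containing groups of the genes leading the comparison upward. Rflnb measured 2.41, 3.72, 4.57 and 3.00 FPKM in saline and 10.6, 6.05, 12.3 and 8.88 in HDL, without overlap between these groups. It measured 2.67, 7.46, 5.59 and 6.62 FPKM in the LNA92a group, and 5.50, 4.89, 5.40 and 7.72 in the dual group, all 4 of the latter above saline. How many of all genes separate a single group from saline in this way was not counted, and Rflnb was chosen by its small p. In the LNA489 group Rflnb measured 3.07, 5.72, 2.18 and 4.02 FPKM, overlapping the saline values. The pooled difference was 0.73 ± 0.21, and the group differences were 1.27 in HDL, 0.92, 0.10 in the LNA489 group and 0.62 in the dual group. The test among the 4 groups gave an unadjusted p of 0.00251 in limma (adjusted p = 0.999).

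**Figure D1:**
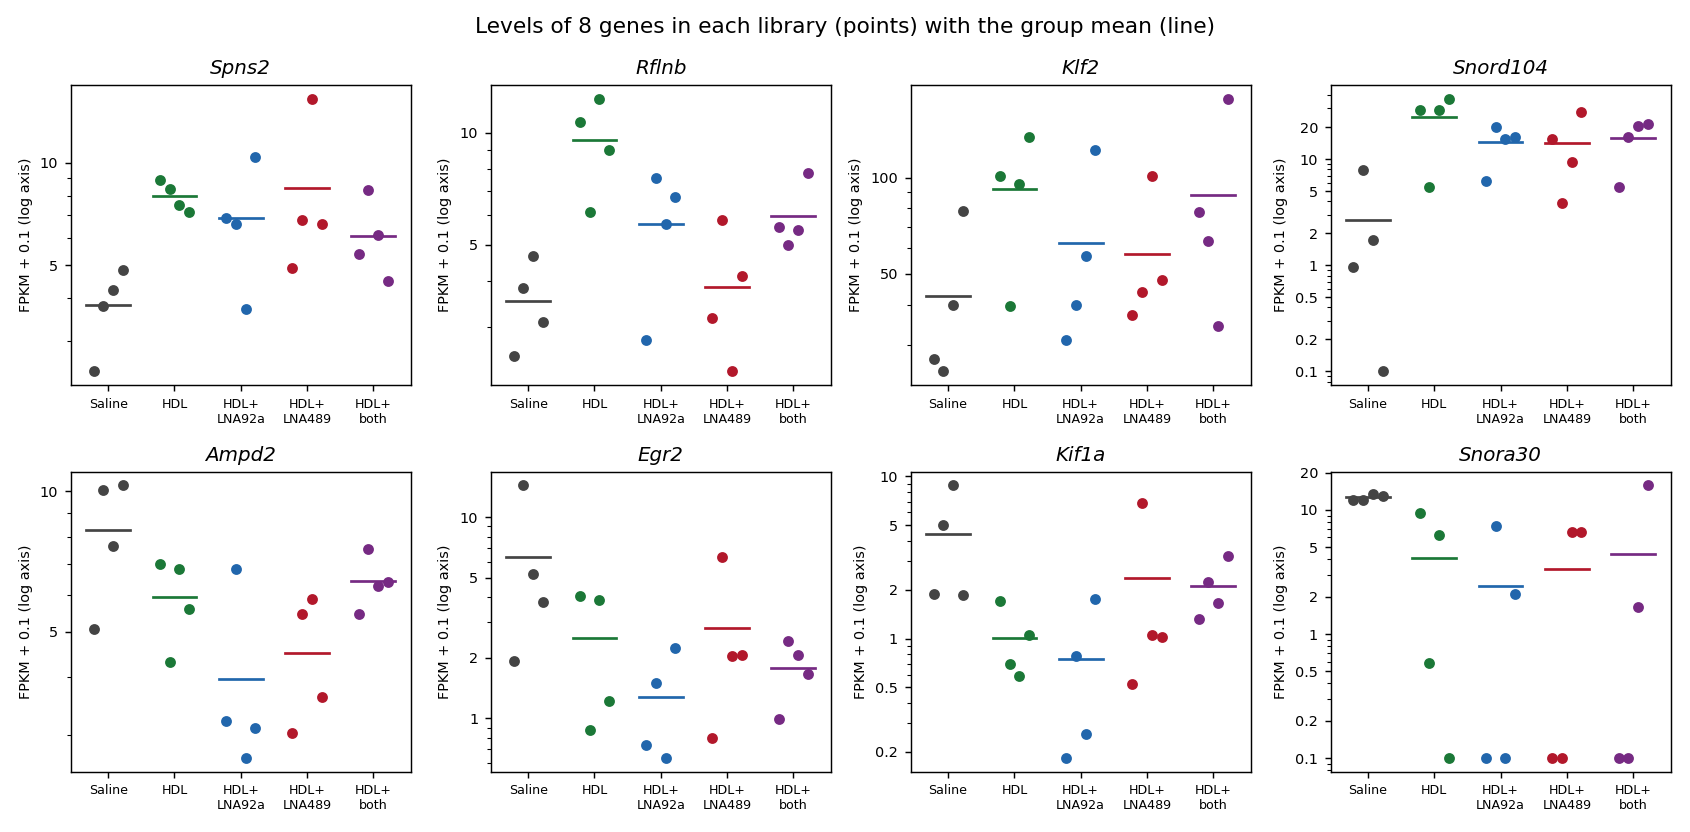
FPKM + 0.1 (log axis) of 8 genes named in the text in each of the 20 libraries, by treatment group, with 4 points a group and a line at the group mean. Spns2 was lowest in the saline group, Rflnb in the LNA489 group stayed at saline levels, and the 4 saline points of Snora30 lie close together at 12.0 to 13.3 FPKM while 7 HDL-treated points are at 0.

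The other genes leading upward were Ogfod3, Snord104, Smim14, Tubb1, Spry4, Rbx1, Hlcs and Stc1. Ogfod3, a predicted oxygenase, was higher by 0.79 ± 0.20, with all 16 HDL-treated libraries above the saline mean, and Hexdc overlaps it. The choice of Ogfod3 by a small p favours that count, and the share of all genes that reach it was not computed. Snord104, a small nucleolar RNA that guides ribosomal RNA methylation, measured 0.858, 7.74, 1.64 and 0 FPKM in saline and 3.73 to 37.0 with a median of 16 in HDL-treated libraries. Its difference was 0.87 ± 0.23, on 0 to 34 reads per library, too few for a firm level. Stc1, the secreted glycoprotein stanniocalcin, measured 0 to 0.290 FPKM in saline and 0.192 to 9.45 in HDL-treated libraries, highest in LNA92a 18. Its difference of 1.20 ± 0.43 was 2.29 in the LNA92a group and 0.60 to 1.29 in the others. Spry4, an inhibitor of growth factor receptor signalling, was higher by 1.06 ± 0.37 and by 0.70 to 1.46 in the single groups. Tubb1, the tubulin of platelets, was listed at 0 in 3 of 4 saline libraries and reached 3.24 FPKM in HDL-treated ones (1.07 ± 0.36). Smim14, a small membrane protein (0.34 ± 0.11), Rbx1, a ubiquitin ligase subunit (0.43 ± 0.15), and Hlcs, the enzyme that attaches biotin to carboxylases (0.52 ± 0.19), differed by less. In each of these 10 genes all 4 groups lay above saline, which their choice by the smallest pooled p favours. Over all genes, the 4 groups lay on the same side of saline in 38.3%.

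The 10 genes leading downward mixed protein-coding genes with small RNAs and a pseudogene. Kif1a, a motor protein that carries synaptic vesicle precursors, measured 1.79, 4.90, 8.72 and 1.75 FPKM in saline and 0.083 to 6.74 with a median of 0.950 in HDL-treated libraries. The difference was -1.51 ± 0.51, and -0.79 with the endothelial, adipocyte and macrophage list means as covariates. In 13 of 16 HDL-treated libraries Kif1a lay under the lowest saline library, and LNA489 13 lay among the saline values. The choice of Kif1a by a small p favours that count, and the share over all genes was not computed. Egr2, an immediate early transcription factor, measured 1.82, 14.3, 5.12 and 3.70 FPKM in saline and 0.534 to 6.24 with a median of 1.75 in HDL-treated libraries. Its difference was -1.19 ± 0.41, and -0.66 without Saline 2, the library with adrenal transcripts. Ampd2, an AMP deaminase (-0.57 ± 0.17), Fbxo5, an inhibitor of the anaphase-promoting complex (-0.66 ± 0.24), and Dclre1c, the DNA repair nuclease Artemis (-0.46 ± 0.17), were also lower in all 4 groups. Their choice by the smallest pooled p favours this too. Trbv20, a T cell receptor segment, differed by -0.76 ± 0.28 on at most 42 reads.

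Snora30, a small nucleolar RNA, stood out by how alike its saline values were. It measured 12.0, 12.0, 13.3 and 12.8 FPKM in saline, while 15 of 16 HDL-treated libraries lay under 9.34 or at that value and 7 of them were listed at 0. The exception, dual 21, had 15.7 FPKM. The difference was -0.95 ± 0.32 and nearly equal in the groups (-0.85, -1.03, -0.96 and -0.98). It rests on 0 to 33 reads per library in a gene that lies within Srcap. The ribosomal 5S gene n-R5s136 (-0.83 ± 0.28), Mir6395 within Saraf (-0.79 ± 0.28) and the pseudogene Akirin1-ps within Appbp2 (-0.66 ± 0.19) are uncertain in the same way. Akirin1-ps had the smallest p of the test among the HDL-containing groups that any named gene reached, 0.000914 unadjusted (limma adjusted p = 0.999). It was level with saline in HDL (-0.07) and 1.27 log2 units under it in the LNA489 group, where 3 of 4 libraries were listed at 0.

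**Figure D2:**
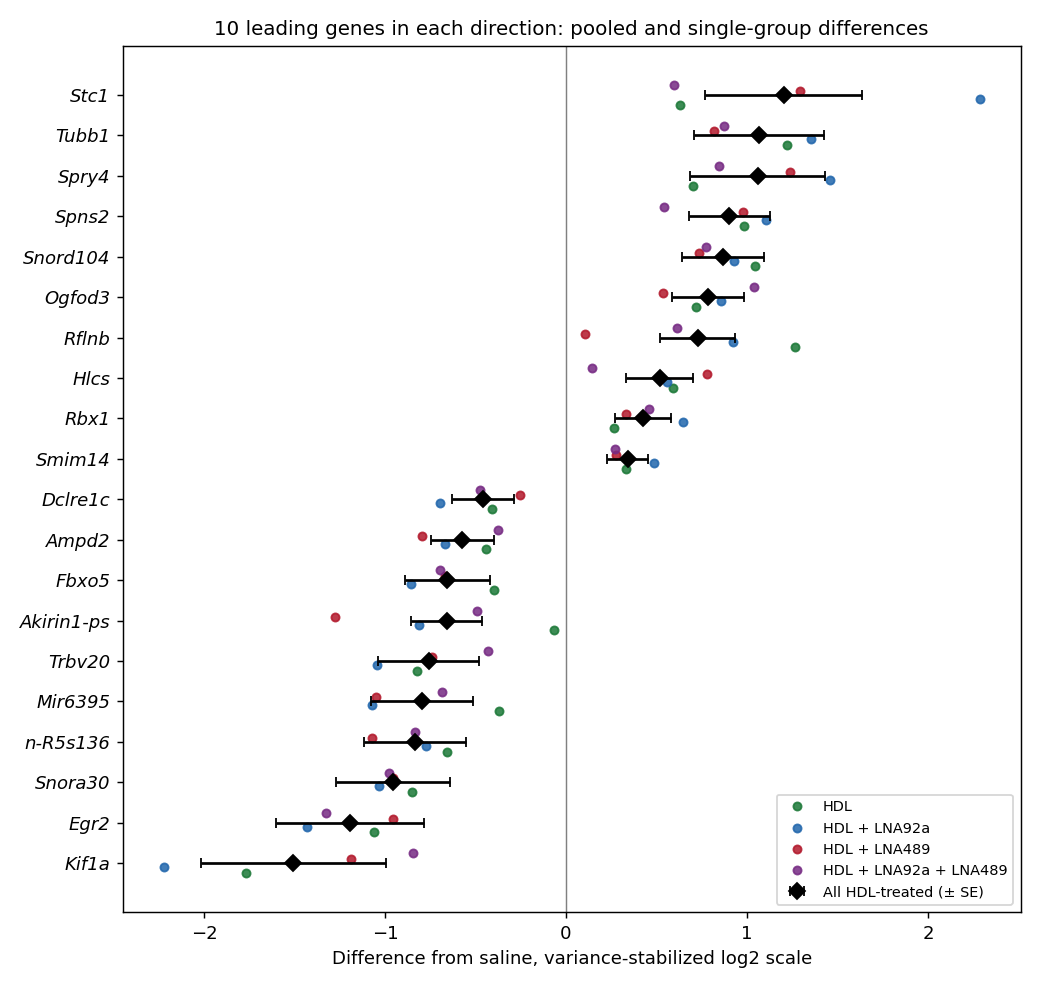
Difference from saline on the variance-stabilized log2 scale for the 10 leading genes in each direction, with black diamonds for all HDL-treated libraries (bars, ± SE) and coloured points for the 4 single groups. Group points lie on 1 side of 0 for all 20 genes, which their choice by the smallest pooled p favours. None of these genes passed an adjusted p of 0.05.

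Among the genes that handle HDL and cholesterol, the transporters and the receptor had lower means in HDL-treated libraries, with intervals that include 0. Abca1 measured 50.9, 121, 345 and 134 FPKM in saline and 33.7 to 297 with a median of 74.0 in HDL-treated libraries, a difference of -0.60 ± 0.38. Abcg1 measured 29.3, 72.3, 284 and 99.9 FPKM against 10.2 to 225 with a median of 52.5 (-0.88 ± 0.55). Pltp, the plasma phospholipid transfer protein, differed by -0.62 ± 0.38, and Soat1, which esterifies cholesterol for storage, by -0.96 ± 0.48. The saline and HDL-treated values of these genes overlapped. Of the 14 tested members of the HDL receptor and cholesterol efflux list, 3 were higher and 11 lower, 0 passed, and the median difference was -0.29 (0.00 over all genes). The group medians were -0.49 in HDL, -0.67 in the LNA92a group, -0.31 in the LNA489 group and 0.02 in the dual group. Without Saline 9 the list median was -0.09 and without Saline 1 it was -0.57.

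Scarb1, the HDL receptor, showed how much 1 library weighed. It measured 3.38, 29.2, 4.86 and 2.99 FPKM in saline and 1.43 to 24.3 with a median of 2.77 in HDL-treated libraries. The high values were those of Saline 2 and dual 10, the libraries with adrenal cortex transcripts, a tissue where SR-BI is abundant. The difference was -0.80 ± 0.50 with all libraries and -0.02 without Saline 2.

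Genes of cholesterol synthesis and uptake did not share a direction. Of the 19 tested members 8 were higher and 11 lower, with a median of -0.03 and group medians of -0.15 in HDL, 0.02 in the LNA92a group, 0.05 in the LNA489 group and -0.07 in the dual group. Dhcr7 (-0.72 ± 0.38) and Mvd (-0.58 ± 0.29), both enzymes of sterol synthesis, lay under saline in all 4 groups, with intervals that include 0.

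In the sphingosine 1-phosphate axis the exporter stood apart from the rest of its list. Of 12 tested members, 6 were higher and 6 lower, with a median of 0.01, and Spns2 was the 1 member at an unadjusted p under 0.05. Apom, the HDL protein that carries sphingosine 1-phosphate, measured 0.530 ± 0.678 FPKM (SD, n = 4) in saline and 1.05 ± 0.930 (SD, n = 16) in HDL-treated libraries (0.54 ± 0.26). The receptor S1pr1 ran from 9.34 to 124 FPKM in saline and from 9.02 to 145 in HDL-treated libraries, a difference of 0.39 ± 0.68. Sphk2, a sphingosine kinase, differed by -0.32 ± 0.22.

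Klf2, a transcription factor that laminar flow raises in endothelium, was higher in the HDL-treated libraries with overlap (chromosome 8, 72319033 to 72321656). Klf2 measured 26.9, 24.6, 39.8 and 78.6 FPKM in saline, and 101, 39.6, 95.2 and 133 in HDL. It measured 31.0, 39.7, 56.8 and 122 FPKM in the LNA92a group, 36.9, 43.7, 101 and 47.8 in the LNA489 group, and 77.7, 63.2, 34.2 and 177 in the dual group. Saline 24 lay within the HDL-treated range. In FPKM, Saline 1 and Saline 2 lay under all 16 HDL-treated libraries, while Saline 9 lay within the HDL-treated range. On the variance-stabilized scale Saline 9 lay under all 16 too, so that without Saline 24 the groups did not overlap there. Klf2 was 1 of 7 genes, of 16848 tested, that this removal left without overlap. The difference was 0.84 ± 0.36 (95% interval 0.08 to 1.60), and 1.11, 0.90, 0.49 and 0.86 in the groups. The exact permutation test gave p = 0.0293, unadjusted, with a limma adjusted p of 0.999. Klf4, its relative, measured 16.4 to 40.6 FPKM in saline and 11.7 to 79.4 in HDL-treated libraries (0.53 ± 0.43, exact permutation p = 0.251). Nos3 had almost no information: it ran from 2.35 to 125 FPKM in saline and from 1.60 to 123 in HDL-treated libraries, and the interval of its difference was -2.02 to 2.12.

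The list of flow response and nitric oxide genes had 14 higher and 4 lower members of 18, a median of 0.28 and 1 member at the unadjusted threshold, Klf2. In 13 of the 18 all 4 groups lay on the same side of saline, beside 38.3% of all genes. Ptgis, the prostacyclin synthase (0.50 ± 0.36), and Thbd, the anticoagulant receptor thrombomodulin (0.49 ± 0.37), were the next members by p. Without Saline 24, the saline library richest in endothelial transcripts, the list median was 0.72, and without Saline 1, the poorest, it was 0.05. The part of endothelial content in these values was not tested beyond the fit with list means as covariates. There the list median was 0.08 and Klf2 differed by 0.67. That fit removes by its construction what follows the endothelial genes, and Nos3 is in both lists.

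Of 15 tested adhesion molecules and chemokines of inflamed endothelium, 11 were higher and 4 lower, with a median of 0.15 that became -0.39 without Saline 1. Vcam1 ran from 2.94 to 61.8 FPKM in saline and 3.28 to 84.7 in HDL-treated libraries (0.15 ± 0.77), and Icam1 from 2.77 to 27.8 and from 4.05 to 40.9 (0.21 ± 0.55). Ccl2, the chemokine that draws monocytes, measured 3.54, 35.4, 2.58 and 1.53 FPKM in saline and 0 to 8.45 with a median of 1.25 in HDL-treated libraries. Its difference was -1.02 ± 0.61, and -0.21 without Saline 2. Nfkbia, the inhibitor of NF-kappa-B, was the 1 of 15 tested members at the unadjusted threshold, higher by 0.55 ± 0.25. The interferon list (14 higher, 6 lower, median 0.07) and the antigen presentation list (7 higher, 8 lower, median -0.03) lay near the median of all genes.

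Genes of macrophages and plaque foam cells were lower in 3 of the 4 HDL-containing groups and level with saline in the dual group. All 16 foam cell genes were lower in the pooled comparison, with a median difference of -0.85 and 0 members at an unadjusted p under 0.05. The group medians were -1.26 in HDL, -1.56 in the LNA92a group, -0.81 in the LNA489 group and 0.17 in the dual group, where 14 of 16 were higher. Gpnmb, a glycoprotein of lipid-laden macrophages, measured 629 ± 659 FPKM (SD, n = 4) in saline and 291 ± 379 (SD, n = 16) in HDL-treated libraries, a difference of -1.44 ± 0.90. Ctsd, a lysosomal protease, differed by -1.04 ± 0.58, and Atp6v0d2, a proton pump subunit of such macrophages, by -1.24 ± 0.83. The macrophage and monocyte list had 2 higher and 16 lower members (median -0.46), including Adgre1, the F4/80 antigen (-0.59 ± 0.33), and Cd68 (-0.86 ± 0.57). The lysosome list had 1 higher and 19 lower (median -0.49). Hmox1, which breaks down heme, measured 27.4, 96.0, 147 and 48.9 FPKM in saline and 8.67 to 228 with a median of 28.4 in HDL-treated libraries (-0.93 ± 0.48). C3ar1, the complement C3a receptor of myeloid cells, was 1 of 16 complement genes at the unadjusted threshold (-1.01 ± 0.47), while the complement list as a whole had a median of 0.50.

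Single libraries carried much of this. The foam cell sum was 8946 FPKM in Saline 9 and 9830 in LNA489 13, and the saline group itself ran from 996 to 8946. Without Saline 9 the foam cell median was -0.34, the lysosome median -0.13 and the macrophage median -0.33. Without Saline 1 the foam cell median was -1.40 and the lysosome median -0.92. With the endothelial, adipocyte and macrophage means as covariates the foam cell and lysosome medians were -0.10 and -0.09, a fit that removes by its construction what follows macrophage genes. In bulk RNA, fewer cells of a type and less RNA per cell cannot be told apart.

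**Figure D3:**
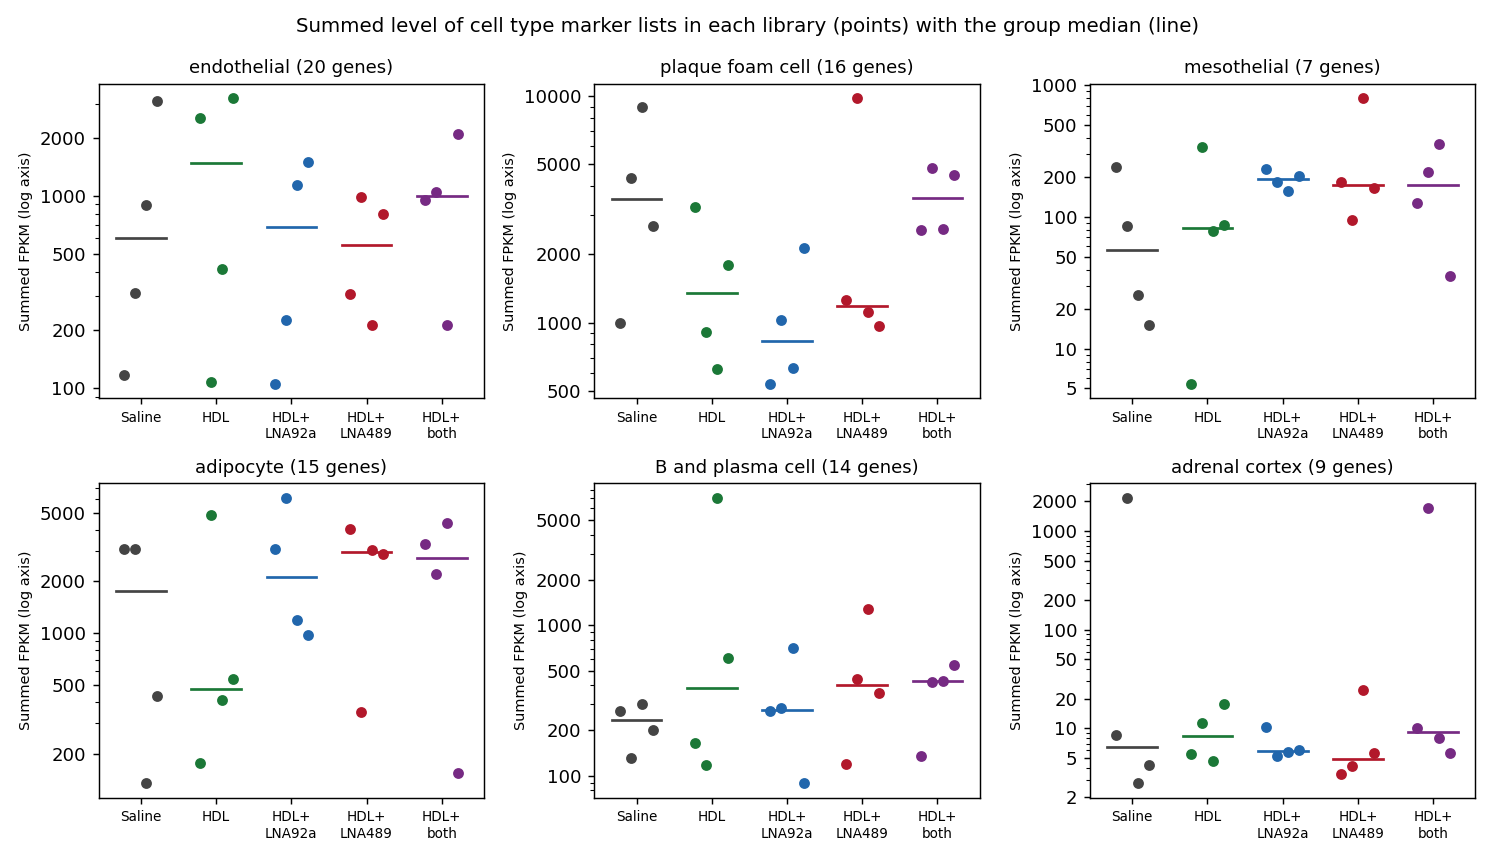
Summed FPKM (log axis) of 6 cell type marker lists in each library, by treatment group, with a line at the group median. Endothelial sums span 106 to 3212 across the libraries, Saline 9 and LNA489 13 have the highest foam cell sums, and Saline 2, dual 10 and HDL 11 stand apart in the adrenal and B cell panels.

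Group medians of lists of tissue around the aorta were higher in the 3 groups with an inhibitor than in HDL alone, but single libraries departed from this. All 7 mesothelial genes were higher in each of the 4 groups, with a pooled median of 1.40 and group medians of 0.21 in HDL, 2.19 in the LNA92a group, 2.08 in the LNA489 group and 1.22 in the dual group. Muc16, a mucin of the mesothelium, measured 11.1, 3.25, 3.15 and 1.11 FPKM in saline and 0.495 to 73.1 in HDL-treated libraries, and differed by 1.68 ± 0.79. Lrrn4, a membrane protein of mesothelium, differed by 1.59 ± 0.75. They were the 2 of 7 at the unadjusted threshold, beside 1.95% of all genes. The mesothelial sum ran from 15.2 to 238 FPKM in saline and from 5.43 to 802 in HDL-treated libraries, and the list median was 0.73 without Saline 24 and 2.17 without Saline 1. All 16 fibroblast and adventitia genes were higher in the pooled comparison (median 0.91; 0.01 in HDL, 1.52, 1.5 and 0.80 in the others), among them Dcn, the proteoglycan decorin (1.21 ± 0.81). Of 15 adipocyte genes 14 were higher (median 0.61), but 2 were in HDL alone, where the median was -0.42. Without Saline 9 the fibroblast median was 0.18 and the adipocyte median -0.21. In HDL 4 the mesothelial, fibroblast and adipocyte sums were 342, 2962 and 4874 FPKM. In HDL 3, HDL 11 and HDL 23 they ran from 5.43 to 87.0, 292 to 659 and 176 to 543 FPKM. Among inhibitor libraries they were 35.8, 286 and 154 FPKM in dual 21, and 94.6, 473 and 346 in LNA489 13. None of these list genes passed, and no test of HDL alone against the inhibitor groups was made for the lists.

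Group medians of mitochondrial genes were likewise lowest in HDL alone, though its 4 libraries did not agree. All 20 tested nuclear genes of oxidative phosphorylation were higher in the pooled comparison (median 0.39), with 0 of 20 higher in HDL alone (median -0.25) and 20 of 20 in each inhibitor group (1.00, 0.52 and 0.41). Fatty acid uptake and oxidation genes had a median of 0.48, with -0.39 in HDL alone and 1.04, 0.68 and 0.53 in the others. The adipocyte list was also lowest in HDL alone (median -0.42), and its part in these values was not tested. With the 3 list means as covariates, a fit that removes by its construction what follows the fat cell genes, the medians were 0.14 and -0.00. Without Saline 24 the median of the oxidative phosphorylation genes was -0.01, and without Saline 9 that of the fatty acid genes was -0.07. HDL 4 departed from its group, with the highest sums of all 20 libraries for both lists (4149 and 3291 FPKM). In HDL 3, HDL 11 and HDL 23 the oxidative phosphorylation sums were 550, 820 and 818 FPKM, and the fatty acid sums 387, 284 and 484.

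Cell cycle genes were the list that lay most evenly under saline. Of 23 tested members 22 were lower, with a median of -0.40 and medians of -0.20 in HDL, -0.57 in the LNA92a group, -0.36 in the LNA489 group and -0.28 in the dual group. In 19 of the 23 all 4 groups lay on the same side of saline, beside 38.3% of all genes. Birc5, the mitotic protein survivin, was the 1 member at the unadjusted threshold, at 1.95 ± 1.49 FPKM (SD, n = 4) in saline and 0.838 ± 1.15 (SD, n = 16) in HDL-treated libraries (-1.02 ± 0.48). Ccna2, cyclin A2, differed by -0.60 ± 0.39, Aurka, a mitotic kinase, by -0.35 ± 0.24, and Cdkn1c, a cell cycle inhibitor that is also in the list, by -0.99 ± 0.52. The list sum was highest in Saline 9, and without that library the median was -0.15. Of 14 T and NK cell genes 10 were lower in the pooled comparison (median -0.41), while 6 were higher in HDL, 1 in the LNA92a group and 5 in each of the others, and Saline 9 had 451 FPKM of them against 24.4 to 668 in HDL-treated libraries.

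B and plasma cell genes and genes of blood cells were higher. Of 14 B and plasma cell genes 13 were higher (median 0.74), with medians of 1.10, 0.70, 0.78 and 0.24 in the groups. Cd79b, a part of the B cell receptor, differed by 1.02 ± 0.59. Without HDL 11 the median was 0.45. All 12 tested erythroid and platelet genes were higher in the pooled comparison (median 0.76). The group medians were 0.27 in HDL, where 7 of 12 were higher, and 1.02, 0.66 and 1.00 in the others. In 6 of the 12 all 4 groups lay on the same side of saline, beside 38.3% of all genes. Tubb1 and the platelet receptor subunit Gp9 (0.66 ± 0.28) were the 2 at the unadjusted threshold, beside 1.95% of all genes. Both are low, with at most 4.35 FPKM of Gp9 in any library.

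Transforming growth factor beta signalling, which drives endothelial cells toward a mesenchymal state, had 16 higher and 6 lower of 22 members, a median of 0.10 and 3 members at the unadjusted threshold. Over all genes 50.8% were higher and 1.95% reached that threshold. Snai2, a transcription factor of that transition, measured 0.828, 0.267, 0.679 and 1.87 FPKM in saline and 0.913 to 3.15 in HDL-treated libraries, all 16 above the saline mean on the variance-stabilized scale (0.62 ± 0.25). Its groups were alike at 0.71, 0.71, 0.42 and 0.65. Snai2 was named for its small p within the list, which favours the count of 16, and the share over all genes was not computed. The ligand Tgfb3 measured 7.04, 5.49, 2.23 and 1.75 FPKM in saline and 3.04 to 27.3 in HDL-treated libraries (1.15 ± 0.48), highest in LNA92a 12, which also had the highest fat cell sum. The ligand Tgfb2 differed by 0.71 ± 0.31. Of 20 collagen and elastic fibre genes 19 were higher, with a median of 0.40 (0.13 in HDL alone), and Postn, the matrix protein periostin, differed by 0.82 ± 0.56.

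The remaining pathway lists had pooled medians between -0.07 and 0.24. They were -0.07 for the unfolded protein response, whose member Edem1, which clears misfolded proteins, was the 1 at the unadjusted threshold (-0.66 ± 0.30), 0.00 for heme and antioxidant defence, 0.01 for angiogenesis and Notch, 0.12 for vascular calcification, 0.14 for immediate early genes and 0.24 for the circadian clock. The groups differed within these lists. Heme and antioxidant genes had medians of -0.43 in HDL, where 3 of 20 were higher, -0.04 in the LNA92a group, -0.01 in the LNA489 group and 0.21 in the dual group. Angiogenesis and Notch genes had medians of 0.21, 0.02, -0.25 and 0.09, and a pooled median of -0.37 without Saline 1. Without Saline 9 the immediate early median was -0.07, that of the circadian clock -0.01 and that of the unfolded protein response 0.04. Angpt2, which destabilizes vessels, differed by -0.71 ± 0.35 and lay under saline in all 4 groups. The endothelial list had 16 higher and 4 lower genes with a median of 0.06, and medians of 0.27 in HDL, -0.05, -0.28 and 0.35 in the others. Its direction rested on single libraries, since the median was -0.57 without Saline 1 and 0.66 without Saline 24.

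**Figure D4:**
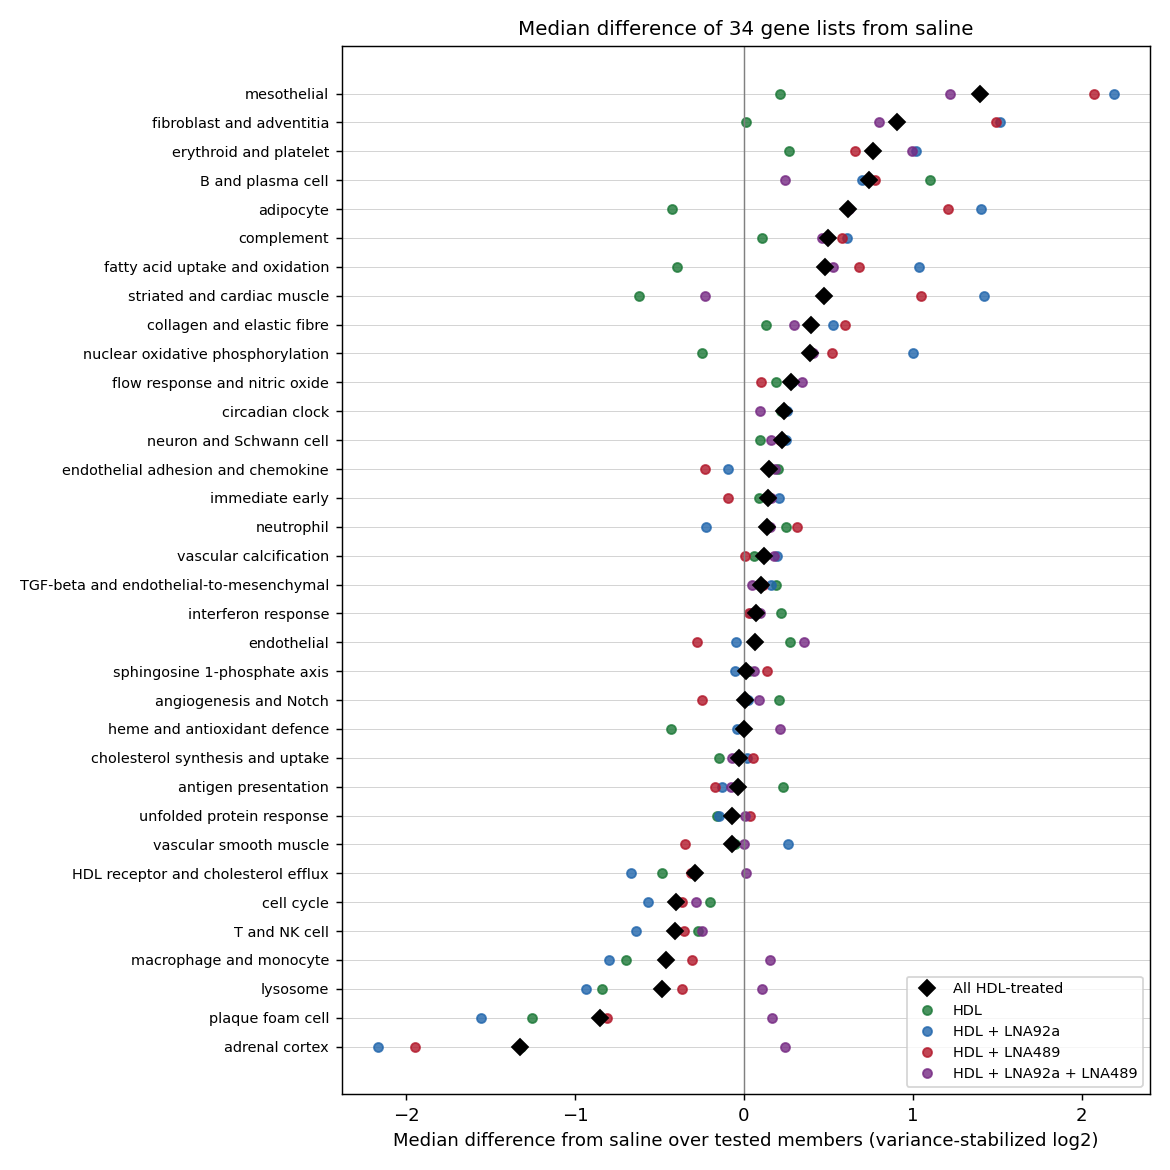
Median difference from saline over the tested members of each of 34 gene lists, on the variance-stabilized log2 scale, for all HDL-treated libraries (black diamonds) and each HDL-containing group (coloured points). The groups lie close together for cell cycle genes and far apart for mesothelial, foam cell, fat and adrenal genes, where the points of HDL alone or of the dual group lie away from the others.

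Genes that led a single group against saline differed less in the other groups, which their choice favours. Dhrs3, which reduces retinal, differed by -1.19 ± 0.35 in HDL and by -0.18 to -0.61 in the others. Mamdc2 differed by -1.82 ± 0.61 in HDL, and Prkar1b, a regulatory subunit of protein kinase A, by -0.93 ± 0.30 in HDL and 0.06 in the LNA489 group. Cyp26b1, which degrades retinoic acid, differed by 1.66 ± 0.45 in the LNA92a group and 0.18 to 0.66 in the others, and Slc38a6, an amino acid transporter, by -1.59 ± 0.46 and -0.24 to -0.61. Dhrs3, Cyp26b1 and Slc38a6 lay on 1 side of saline in all 4 groups, and Prkar1b did not. Zmym3 differed by -0.75 ± 0.20 in the LNA489 group and 0.05 in HDL, and Fam188b by 0.90 ± 0.26 in the LNA489 group and 0.05 to 0.33 in the others. In the dual group the leading genes were Ogfod3 (1.04 ± 0.25), Praf2 (1.01 ± 0.37) and Atp5g2, a subunit of ATP synthase (0.71 ± 0.25), upward, and Zfp958 (-0.73 ± 0.23), Alg11 (-0.50 ± 0.16) and Arsg (-0.87 ± 0.30) downward. Among the HDL-containing groups, Pcp4l1 (-0.76, 1.07, 0.52 and -0.28) and Hrc, a calcium-binding protein of muscle (-1.25, 1.41, 0.90 and -0.45), were higher in both single inhibitor groups than in HDL and the dual group, the order in which the striated and cardiac muscle list lay (-0.62, 1.42, 1.05 and -0.23).

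Apoe, the inactivated gene, was read in every library, at 3.31, 8.14, 17.3 and 26.0 FPKM in saline and 2.31 to 24.7 with a median of 9.79 in HDL-treated libraries. The difference was -0.29 ± 0.41 (exact permutation p = 0.533). Such reads can come from an inactivated copy of the gene, so the level is no test of the mouse line. The exact permutation p-values given for single genes are not adjusted.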

How the data were processed

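RNA-seq of 20 aortic endothelium samples was used, 16 HDL-treated and 4 saline. The authors deposited 2 tables: variance-stabilized counts on a log2 scale covering 20442 genes, and FPKM covering 32081. DESeq2 1.18.1, featureCounts 1.15.29, STAR 2.5.3a, cutadapt 1.16 and FastQC, and the genome build GRCm38.p5, are named per the submitters' processing notes, which give neither order nor purpose. Strand and annotation release are not given in the sources used here, so genes overlapped by another are named as uncertain. Each library's FPKM values, multiplied by gene length, were whole multiples of 1 read (tolerance 0.1 read, met by 100% of the values tried in each library), and these reads gave the depth and the voom alternative.

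Differences were fitted with limma 3.58.1 (R 4.3.3) on the deposited log2 values, with 5 group means, moderated variances with a mean trend, 15 residual degrees of freedom, and 16848 genes of mean FPKM at least 0.5. The threshold for a call was 0.05 on the 2-sided p adjusted by Benjamini-Hochberg over all genes. The variance-stabilized scale compresses differences of weakly read genes. The exact permutation test over 4845 arrangements was run on 16 genes chosen by name and is given unadjusted. The scripts were tested on simulated data. Coordinates are from GENCODE M21 (GRCm38), 1-based, with 31929 identifiers matched without their version. Low-depth genes are limited by counting error. The p-values judge a difference of means against the spread between libraries, each of 1 mouse, which includes counting error.

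Named genes were the 10 smallest p in each direction among genes of mean FPKM 1 or more with a proper symbol (no gene was called), 3 per direction in each single group, 5 from the test among groups, up to 4 members per list, and the 16 chosen by name. The members, the 34 lists (14 cell type, 20 pathway, 561 genes, 521 tested) and the named genes were chosen with earlier results of these data known. Lists are described by counts and medians with no test. Their counts stand beside 50.8% of all genes higher and 1.95% at an unadjusted p under 0.05 in the pooled comparison. Some results are not reported here.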

Additional observations from a re-analysis of the deposited data

Results flagged for a closer look

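In the 16 genes chosen by name and the leading genes, 35 in all, each of 5 groups was checked for a single library far from the other 3 (175 checks, of which chance alone flags about 1 in 20), and 10 were found. LNA489 13, the library with the highest foam cell sum, gave 4 of them: it had 297 FPKM of Abca1 and 225 FPKM of Abcg1, both far above its group, and 11.7 FPKM of Klf4, far below. The fourth was its 0.285 FPKM of Akirin1-ps in a group otherwise listed at 0. Rflnb in LNA92a 5 was low at 2.67 FPKM. Tubb1 in Saline 24 was 1.52 FPKM with the other saline libraries at 0. Spry4 in dual 8 was high at 2.55 FPKM, and n-R5s136 in LNA489 19 was high at 7.79 FPKM. Trbv20 was 0.985 FPKM in LNA92a 17 with the rest of the group at 0, and 0 in dual 8 with the rest above.

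Apoe lay on opposite sides of the saline mean in 2 groups, with every dual mouse above it (group mean difference 0.326) and every LNA489 mouse below it (group mean difference -0.608). That pair was not tested against each other, and the test among all 4 HDL-containing groups gave an unadjusted p of 0.182.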

How the results depend on the processing

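Over 34 alternatives the count of called genes stayed at 0 in all 174 counts run for the 6 comparisons. The smallest adjusted p was 0.0936 (LNA489 group against saline without LNA489 13), and 0.791 for all HDL-treated libraries. The 329 genes at an unadjusted p under 0.05 became 717 with the 3 list means as covariates, 599 without the HDL group, 175 without the LNA92a group, 91 at a mean FPKM of at least 5, and 897 without Saline 2, HDL 11 and dual 10, an alternative chosen after seeing the data. Without 1 library they ran from 216 (Saline 9) to 687 (Saline 1), with 646 without Saline 2, 651 without LNA489 13 and 500 without HDL 11. The 0 genes without overlap became 62 without those 3 libraries, 3 without the LNA489 group, 10 without the dual group (Spns2 and Snora30 among them), 3 without the LNA92a group, 4 without the HDL group, 1 with median-centred libraries (Mfsd7c), and 0 to 18 without 1 library (18 without Saline 2). Fewer libraries separate more easily by construction. Of 5860 values of single named genes 52 changed sign, in 26 genes, most often Nos3 (14), and of 1156 list medians 99 changed sign, in 17 lists. The median of all genes was 0.00 on the variance-stabilized scale and -0.08 on log2(FPKM + 0.1). No paired analysis was possible because the animal numbers differ between the groups.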
